A study of Mus musculus with 18 samples.

Results

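The genes described here are the ligands, receptors and Smad proteins of the TGF-beta superfamily, taken as every gene whose symbol fits the families' naming patterns, with no threshold on a measured value. There were 49 of them among the 35734 genes listed in the authors' deposited table of fibroblast RNA. They comprised 28 ligand genes, 12 receptor genes, 8 Smad genes and Bmp1, which bears a BMP symbol but encodes a procollagen protease. An adjusted p was given for 44 of the 49. Bmp10, Gdf2 and Gdf5 were too low for one, and Gdf1 and Inhbc were listed at 0.

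The study asked what Ikzf1 and Ikzf4, a pair of Ikaros-family zinc finger transcription factors, add to neuronal reprogramming. Mouse embryonic fibroblasts, connective tissue cells grown from embryos, came from the R26-M2rtTA line, which expresses a doxycycline-dependent activator from the Rosa26 locus, on C57BL/6. Both fibroblast groups carried doxycycline-inducible lentiviral vectors for the neuronal transcription factors Brn2 (gene Pou3f2) and Myt1l, and 1 group also carried vectors for Ikzf1 and Ikzf4. They are called BM and BM/Ikzf1/4, were collected after 48 h of doxycycline, and had 3 poly(A) RNA libraries each. No source used here gives the share of cells that took up every vector. The retinal experiment was a multiome, of which the chromatin accessibility (ATAC) part was used, with 1 library per group. Its control was labelled as Muller glia of the retina from GLAST-CRE ERT2;RosaYFP mice on C57BL/6, with mCherry. In that line a tamoxifen-dependent Cre, driven by the promoter of the glial glutamate transporter GLAST, turns on a YFP reporter. The labels of the Ikzf1/4 sample repeat its title in place of tissue, cell type, line and strain. Both are labelled with tamoxifen for 14 days while the run names in the file headers carry 48 h, so the time of these libraries is unsettled. All 18 samples fall into 10 groups, and the single-cell RNA samples, the RNA part of the multiome and the fibroblast peak lists were not analysed here.

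Ligands of this superfamily are secreted dimers that bring type II and type I serine/threonine kinase receptors together. The activated type I receptor phosphorylates receptor-regulated Smads, which bind the common Smad4 and act on genes in the nucleus. TGF-beta and activin ligands mainly use Smad2 and Smad3, and BMP ligands, with some GDFs such as GDF2, GDF5, GDF6 and GDF7, mainly use Smad1, Smad5 and Smad9 (also called Smad8). Other GDFs, such as GDF11, use Smad2 and Smad3. The inhibitory Smad6 and Smad7 dampen both branches. In fibroblasts TGF-beta is known for driving matrix production and the myofibroblast state, and in neural tissue BMP signals are known for favouring glial over neuronal fates.

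The 6 fibroblast RNA libraries held between 34966344 and 44270426 estimated reads. Fibroblast markers were abundant (means of 269 to 120590 for 7 genes in the authors' deposited table), while macrophage markers were also present (means of 326 to 2580), with 0 of 5 changed there. The factors that define the groups followed their labels, with log2 fold changes in the authors' deposited table of 8.54 for Ikzf4 and 7.76 for Ikzf1. Myt1l, whose vector both groups carried, was also higher, by 0.50 (SE 0.17 and DESeq2 adjusted p 0.0157, the authors' deposited table), and its part in the results below was not tested. Transcript values per library are not paired with genes in the sources used here, so gene values are the means and fold changes of that table and no value per library can be printed. Its fold changes may be shrunk toward 0, since genes with few reads have small standard errors in it. Nothing in the labels says that the 3 libraries of a group came from separate cultures, so its p-values measure the spread between these libraries only.

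With Ikzf1 and Ikzf4 added, the RNA of Smad9 rose most among these genes and the other Smads of the BMP branch rose with it, while Inha and the type I receptor gene Acvrl1 fell most. At a DESeq2 adjusted p under 0.05 in the authors' deposited table, which is the threshold used throughout for fibroblast RNA, 16 of the 44 genes passed, 10 higher and 6 lower with Ikzf1/4. That is 36.4%, beside 30.6% of all 16757 genes with an adjusted p (15.3% higher and 15.4% lower). In the authors' deposited table the middle of the log2 fold changes, the median, was 0.04 for the 44 genes and -0.0004 for all genes. Calls were uneven across roles. Of the ligand genes, 4 of 23 passed, of the receptor genes 7 of 12 and of the Smad genes 5 of 8. Calls also went with level, which differed between the roles. In the authors' deposited table the BMP ligand genes with an adjusted p had means of at most 318, and the 8 Smad genes of at least 516.5. Those of the 12 receptor genes ran from 11.1 to 16921. The part of level in the counts by role was not tested. With a mean normalised count under 100 in the authors' deposited table, 1 of 15 members passed, where 12.4% of all such genes did. Between 100 and 1000 it was 5 of 9, beside 33.1% of all genes, and over 1000 it was 10 of 20, beside 40.5%.

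**Figure D1:**
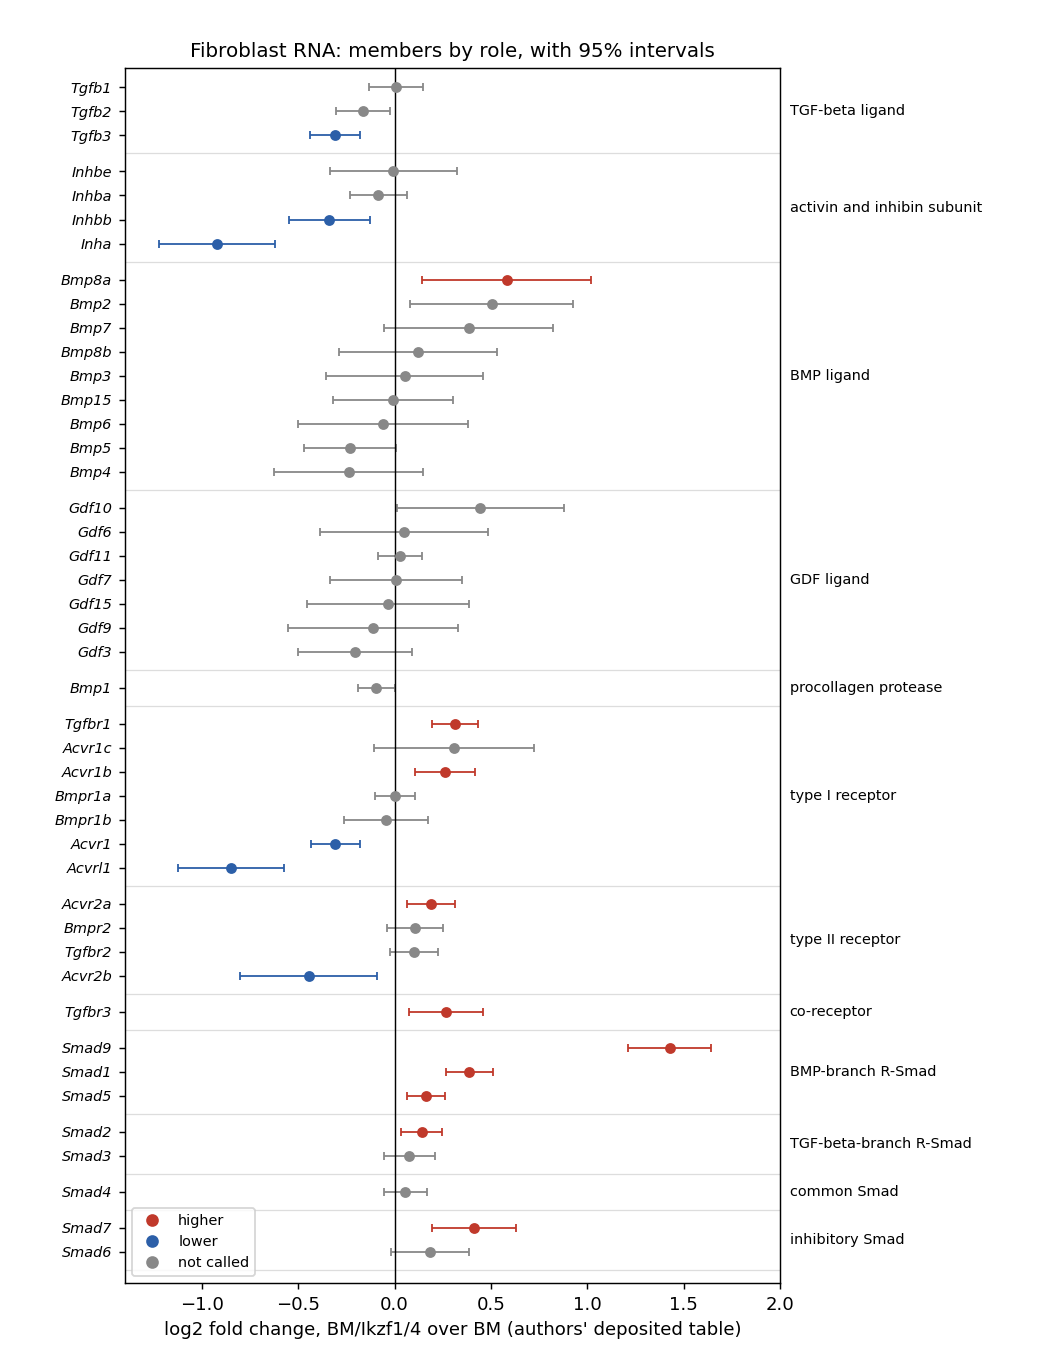
Log2 fold change of each of the 44 genes with an adjusted p, BM/Ikzf1/4 over BM, from the authors' deposited table, grouped by role, with bars of the 95% interval; red, higher, blue, lower, grey, did not pass the threshold. Smad9 stands alone at 1.43, the 8 Smad genes all lie right of 0, and Inha (-0.92) and Acvrl1 (-0.85) lie farthest left.

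Among the Smads, the 3 receptor-regulated Smads of the BMP branch were all higher. Smad9 (ENSMUSG00000027796) had a mean normalised count of 1231 and a log2 fold change of 1.43 (SE 0.11, interval 1.21 to 1.64, DESeq2 adjusted p 2.06e-36) by the authors' deposited table, a 2.69-fold rise. It ranked 88 of 16757 genes by fold change there, with 0.519% of genes above it. It was the only one of the 44 past an absolute log2 fold change of 1, a size that 2.15% of all genes passed. The other branch members rose far less. Smad1 (ENSMUSG00000031681) rose by 0.39 (SE 0.06, DESeq2 adjusted p 5.76e-09) by the authors' deposited table at a mean of 1917. Smad5 (ENSMUSG00000021540) rose by 0.16 (SE 0.05, DESeq2 adjusted p 0.00487) at a mean of 3592 by the authors' deposited table. The interval of Smad9 thus lay above that of Smad1 and Smad5, as the plot of fold changes by role shows, although the difference between genes was not tested.

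The Smads of the TGF-beta branch moved little. Smad2 was higher by 0.14 (SE 0.05 and DESeq2 adjusted p 0.0348, the authors' deposited table), a call that ends when the p-values are adjusted over all genes without the authors' filter (adjusted p 0.0513). Smad3 was at 0.08 (SE 0.07 and DESeq2 adjusted p 0.438, the authors' deposited table). Smad4, the partner of both branches, was at 0.06 (SE 0.06 and DESeq2 adjusted p 0.519, the authors' deposited table). Of the inhibitory Smads, Smad7, a target of TGF-beta that feeds back on its receptor, rose by 0.41 (SE 0.11 and DESeq2 adjusted p 0.00127, the authors' deposited table). Smad6, which mainly restrains the BMP branch, was at 0.18 (SE 0.10 and DESeq2 adjusted p 0.172, the authors' deposited table). All 8 Smad fold changes in the authors' deposited table were above 0, with a median of 0.17. Of the 20 members with means over 1000 there, 15 were above 0, and of all 16757 genes 8373 were. Calls that a Benjamini-Yekutieli adjustment over the same genes ended were those of Smad5 (adjusted p 0.0502), Smad2 (0.358), Acvr2a (0.140), Acvr2b (0.458), Tgfbr3 (0.257), Inhbb (0.0783) and Bmp8a (0.348).

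The receptors divided within each type. Among type I receptors, Tgfbr1, the kinase receptor for TGF-beta, rose by 0.31 (SE 0.06 and DESeq2 adjusted p 3.48e-06, the authors' deposited table). Acvr1b, the activin type I receptor, rose by 0.26 (SE 0.08 and DESeq2 adjusted p 0.00475, the authors' deposited table). Both feed Smad2 and Smad3, as does Acvr1c (ALK7), a receptor for Nodal and related ligands, which was at a mean of 11.1 and did not pass (0.31, SE 0.21 and DESeq2 adjusted p 0.291, the authors' deposited table). The receptors that feed the BMP-branch Smads fell or did not pass. Acvrl1 (ALK1), the receptor for GDF2 (BMP9) and BMP10 best known from endothelium, fell by 0.85 (SE 0.14, DESeq2 adjusted p 3.17e-08) at a mean of 321 by the authors' deposited table. Acvr1 (ALK2) fell by 0.31 (SE 0.06 and DESeq2 adjusted p 1.84e-05, the authors' deposited table). Bmpr1a, at a mean of 7464, was at 0.003 (SE 0.05 and DESeq2 adjusted p 0.981, the authors' deposited table), and Bmpr1b was at -0.05 (SE 0.11, DESeq2 adjusted p 0.814). The 5 endothelial markers examined (Pecam1, Cdh5, Kdr, Tek and Tie1) had means of 5.82 to 132 in the authors' deposited table, and 0 of 5 passed in either direction. Their part in the fall of Acvrl1 was not tested.

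Of the type II receptors, Acvr2a, shared by activins and BMPs, rose by 0.19 (SE 0.06 and DESeq2 adjusted p 0.0136, the authors' deposited table). Acvr2b, its paralog, was lower by 0.45 (SE 0.18, DESeq2 adjusted p 0.0445) at a mean of 107 by the authors' deposited table. That call also ended without the authors' filter (adjusted p 0.0656). Bmpr2, the BMP type II receptor, had a mean of 16921 and was at 0.11 (SE 0.07 and DESeq2 adjusted p 0.311, the authors' deposited table). Tgfbr2, the only type II receptor for TGF-beta, was at 0.10 (SE 0.06 and DESeq2 adjusted p 0.230, the authors' deposited table). Tgfbr3 (betaglycan), a co-receptor that presents TGF-beta2 and inhibin, rose by 0.27 (SE 0.10 and DESeq2 adjusted p 0.0249, the authors' deposited table).

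Falls prevailed among the TGF-beta and activin ligand genes that passed. Inha (ENSMUSG00000032968), the inhibin alpha subunit, which turns an activin into an inhibin when paired with a beta subunit, fell by 0.92 (SE 0.15, DESeq2 adjusted p 4.09e-08) at a mean of 180.5 by the authors' deposited table. Its level of 0.528-fold in the authors' deposited table was the lowest ratio of the 44 genes. Inhbb, the subunit of activin B, fell by 0.34 (SE 0.11 and DESeq2 adjusted p 0.0076, the authors' deposited table). Inhba, the subunit of activin A, had a mean of 18012 and was at -0.08 (SE 0.08 and DESeq2 adjusted p 0.458, the authors' deposited table). Tgfb3 fell by 0.31 (SE 0.07 and DESeq2 adjusted p 2.43e-05, the authors' deposited table). Tgfb2 was at -0.16 (SE 0.07 and DESeq2 adjusted p 0.0658, the authors' deposited table), close to the threshold, and Tgfb1 was at 0.01 (SE 0.07, DESeq2 adjusted p 0.958). In this group 3 of 7 ligand genes with an adjusted p thus passed, all lower, where 30.6% of all genes passed and 15.4% were lower.

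The BMP and GDF ligand genes gave 1 call among 16, or 6.25%. Most of them had means under 100 in the authors' deposited table, where 12.4% of all genes passed. Bmp8a was higher by 0.58 (SE 0.22, DESeq2 adjusted p 0.0338) at a mean of 29.0 by the authors' deposited table. Bmp8b, a close paralog near it on chromosome 4, was at 0.12 (SE 0.21 and DESeq2 adjusted p 0.727, the authors' deposited table), and reads of such close copies can be divided either way. Bmp2 missed the threshold at 0.51 (SE 0.22 and DESeq2 adjusted p 0.0603, the authors' deposited table). Gdf10 was at 0.45 (SE 0.22 and DESeq2 adjusted p 0.117, the authors' deposited table). Bmp4 and Bmp5, at means of 154 and 318, were at -0.24 (SE 0.20) and -0.23 (SE 0.12) in the authors' deposited table and did not pass. Gdf11, a regulator of axial patterning and neurogenesis, had a mean of 2931 and was at 0.03 (SE 0.06 and DESeq2 adjusted p 0.780, the authors' deposited table). The GDF genes besides Gdf11 had means of at most 64.8 in the authors' deposited table, and none of the 6 of them with an adjusted p passed. Bmp1, the protease that trims procollagens and frees ligands from their inhibitors, was at -0.09 (SE 0.05 and DESeq2 adjusted p 0.132, the authors' deposited table).

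**Figure D2:**
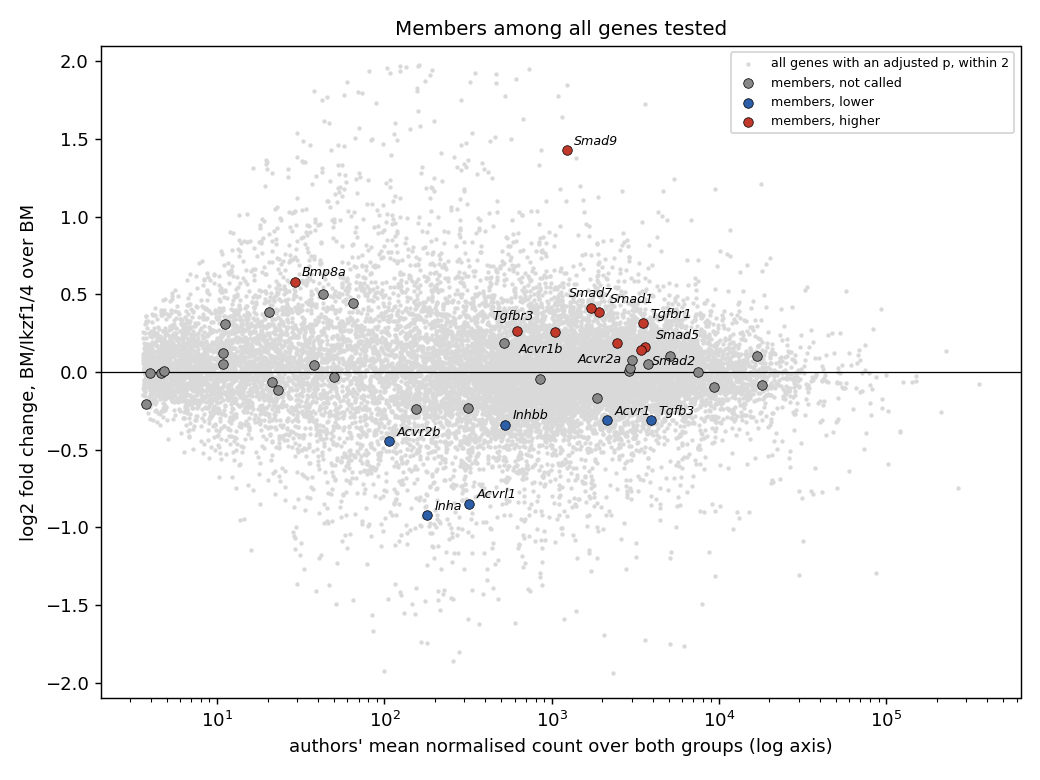
Log2 fold change (BM/Ikzf1/4 over BM) against the mean normalised count of both groups (log axis), from the authors' deposited table, for all genes with an adjusted p (light grey, those within 2 drawn) and for the 44 genes (circles; red, higher, blue, lower, dark grey, did not pass). Smad9 lies above most genes of its level, at a mean of 1231, and members with means under 100 give 1 call, Bmp8a.

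Genes that act around these members were examined through lists chosen from textbook knowledge with earlier results of these data known. Among genes known to respond to TGF-beta more fell than rose, and among genes known to respond to BMP more rose than fell. Of 19 TGF-beta target genes, 10 were lower and 3 higher in the authors' deposited table, with a median log2 fold change of -0.21. Those called make up 68.4% of the list, beside 30.6% of all genes and 40.5% of genes with means over 1000. Ccn2, a matrix-associated growth regulator, fell by 1.09 (SE 0.08) and Snai2, an epithelial to mesenchymal transition factor, by 0.79 (SE 0.08) in the authors' deposited table. Postn, a matrix protein, fell by 0.63 (SE 0.08) in the authors' deposited table. Skil, a repressor of Smads that TGF-beta induces, rose by 0.59 (SE 0.07) and Junb by 0.27 (SE 0.07) in the authors' deposited table. Many of these genes are also matrix and fibroblast genes. Of 7 fibroblast markers, which include Col1a1 and Col1a2 of this list, 5 were lower in the authors' deposited table, beside 15.4% of all genes, led by Dcn at -1.77 (SE 0.08). Pdgfra (0.03, SE 0.12) and Lum (-0.23, SE 0.17) did not pass there. The part of the fall of these markers in that of the list was not tested. In bulk libraries fewer cells of a type and less RNA per cell cannot be told apart.

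Of 14 BMP target genes with an adjusted p, 7 were higher and 1 lower in the authors' deposited table, with a median of 0.31. Those called make up 57.1%, beside 30.6% of all genes. Id4, an inhibitor of basic helix-loop-helix factors, rose by 0.84 (SE 0.11) and Hey1 by 0.80 (SE 0.16) in the authors' deposited table. Runx2, the osteoblast regulator, rose by 0.78 (SE 0.12) and Id2 by 0.64 (SE 0.08) in the authors' deposited table. The Id genes did not move as 1 group. Id1 rose by 0.37 (SE 0.11), but Id3 fell by 0.33 (SE 0.07, DESeq2 adjusted p 3.65e-05), by the authors' deposited table.

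Secreted antagonists moved both ways, with 5 of 15 higher and 4 lower in the authors' deposited table (median 0.22). Those called make up 60%, beside 30.6% of all genes. Vwc2l and Vwc2, von Willebrand factor C domain proteins of neural tissue, rose by 3.26 (SE 0.19) and 1.57 (SE 0.21) in the authors' deposited table, at means of 215 and 70.7. Antagonists that bind BMP ligands were divided. Noggin (Nog) rose by 0.76 (SE 0.17) and gremlin 1 (Grem1) by 0.75 (SE 0.09) in the authors' deposited table. Chordin (Chrd) fell by 0.38 (SE 0.11) in the authors' deposited table. Follistatin (Fst), which binds activins, fell by 0.76 (SE 0.08) in the authors' deposited table.

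Genes that keep TGF-beta latent or release it gave 1 higher and 4 lower of 15 in the authors' deposited table (median 0.05), or 33.3% called beside 30.6% of all genes. Ltbp2, 1 of the 4 lower, is also counted among the TGF-beta target genes. Thbs1, an activator of latent TGF-beta, fell by 0.74 (SE 0.07) and Lrrc32 (GARP), a cell surface anchor of it, by 0.59 (SE 0.11) in the authors' deposited table. Ltbp4, a latent TGF-beta binding protein, rose by 0.54 (SE 0.08) in the authors' deposited table. Of 15 intracellular modulators, 5 were higher and 2 lower there (median 0.06). Those called make up 46.7%, beside 40.5% of genes with means over 1000. Skil, also counted among the TGF-beta target genes, had the largest rise of these modulators, 0.59 (SE 0.07) in the authors' deposited table. Nedd4l, a ubiquitin ligase that acts on Smads, rose by 0.45 (SE 0.09), and Ski fell by 0.15 (SE 0.04), in the authors' deposited table. Of 4 co-receptors besides Tgfbr3 with an adjusted p, 1 was higher and 1 lower, or 50% called beside 30.6% of all genes, while Eng and Rgma did not pass. Neo1 rose by 0.25 (SE 0.05) and Rgmb fell by 0.30 (SE 0.06) in the authors' deposited table. Mstn (myostatin), a GDF whose symbol lies outside the rule, rose by 1.80 (SE 0.21, DESeq2 adjusted p 4.19e-16) at a mean of 69.3 by the authors' deposited table, while the muscle regulators Myod1, Myf5 and Myog had means of at most 0.160 and Des, the fourth muscle marker examined, was at a mean of 83.5 and did not pass.

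**Figure D3:**
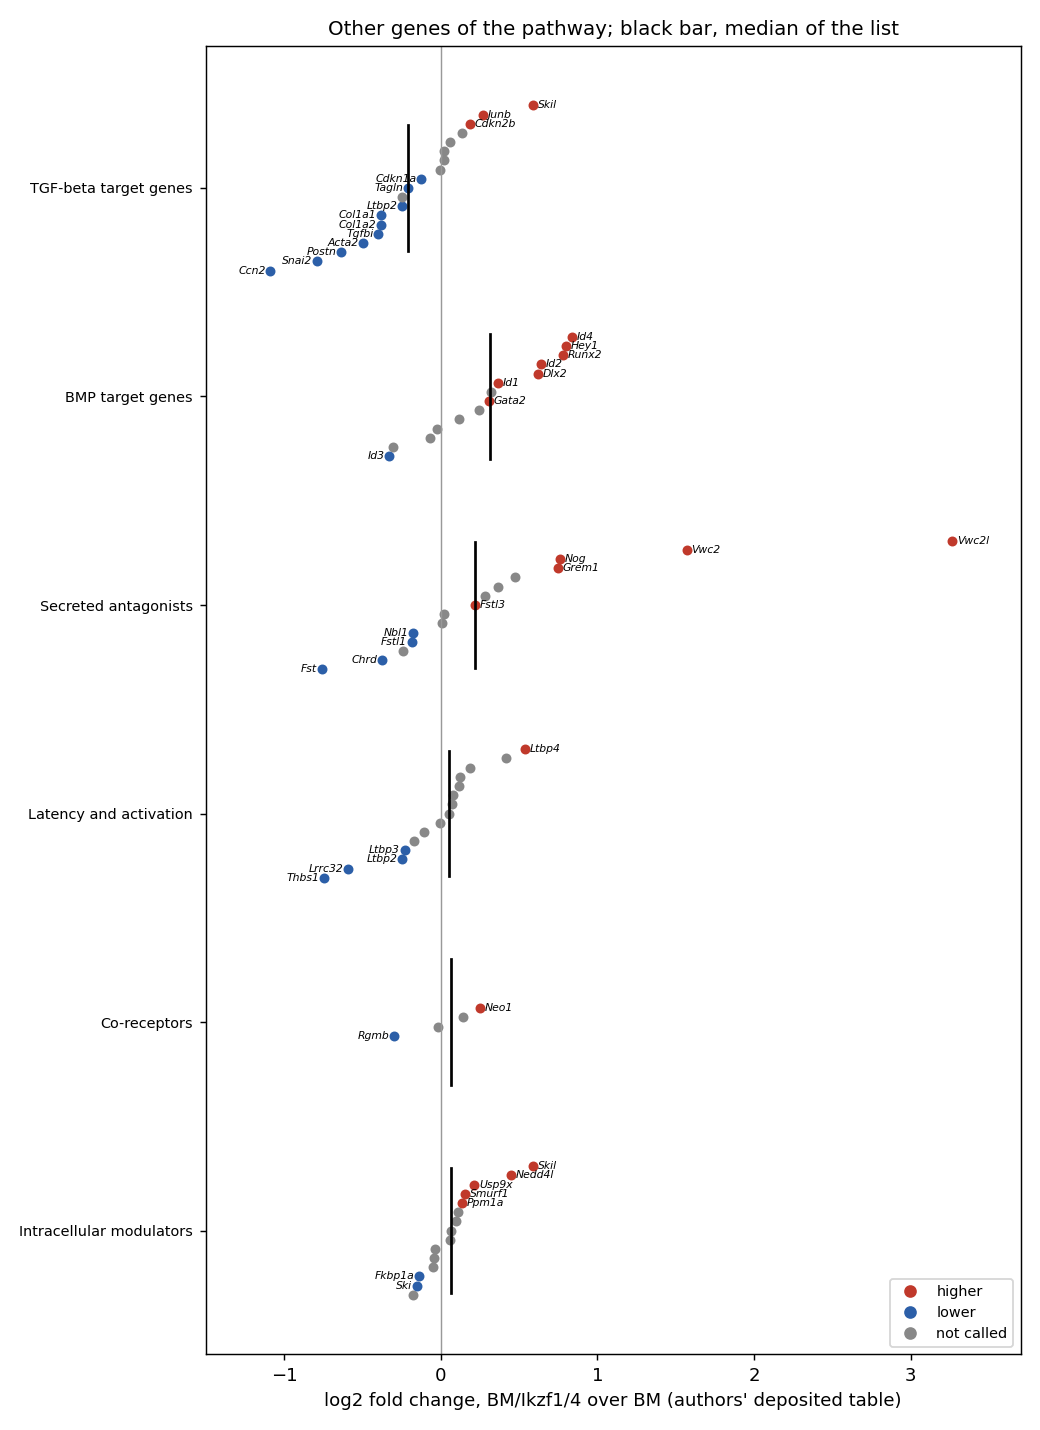
Log2 fold change (BM/Ikzf1/4 over BM, from the authors' deposited table) of the other genes of the pathway, 1 point per gene with an adjusted p in each of 6 lists, sorted within the list; red, higher, blue, lower, grey, did not pass; black bar, median. The TGF-beta target genes lie mostly left of 0 (median -0.21), the BMP target genes mostly right (median 0.31), and the secreted antagonists spread from -0.76 to 3.26.

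The promoters of the members were searched for short motifs in the RefSeq table of GRCm38.p6, whose windows run from 250 bases before to 50 after an annotated start. It holds 43 windows for 35 of the 49 genes, among 32851 windows in all. The motifs, on both strands, were the core of the Ikaros site (TGGGAA), the Smad box (CAGAC) and a GC-rich Smad box (GGCGCC). The Ikaros core was in 25.6% of member windows and 25.6% of all windows, and the Smad box in 46.5% and 49.6%. GGCGCC was in 20.9% of member windows and 11.9% of all, while member windows were also richer in G and C (median 63.0% against 52.7%). By gene, GGCGCC was found for 4 of the 7 higher members with a window (Smad9, Smad5, Tgfbr1 and Acvr1b), for 0 of 4 lower members and for 3 of 20 that did not pass. Among all genes with a window it was found for 3617 of 27025. The Ikaros core was found for 2 of the 7 higher, 1 of the 4 lower and 7 of the 20 other members. The Smad box was found for 4, 2 and 9 of them. Differences between these groups were not tested. Smad9, the largest rise, had the Ikaros core 211 bases before its listed start and GGCGCC nearer that start. The 127 bases just before that start lie inside the annotated gene and are left out below. The GGCGCC of Smad9 is not in the bases shown. The bases before Smad9 that lie outside the annotated gene (GRCm38.p6, chr3:54755332-54755454, + strand) and those before Tgfbr1 (chr4:47352972-47353221, + strand) are shown for their matches, with the Ikaros core of Smad9 and the GGCGCC of Tgfbr1, 233 bases before its start, in capitals.
Smad9: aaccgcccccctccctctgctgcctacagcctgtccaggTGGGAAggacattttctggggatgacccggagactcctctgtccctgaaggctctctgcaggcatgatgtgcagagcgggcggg
Tgfbr1: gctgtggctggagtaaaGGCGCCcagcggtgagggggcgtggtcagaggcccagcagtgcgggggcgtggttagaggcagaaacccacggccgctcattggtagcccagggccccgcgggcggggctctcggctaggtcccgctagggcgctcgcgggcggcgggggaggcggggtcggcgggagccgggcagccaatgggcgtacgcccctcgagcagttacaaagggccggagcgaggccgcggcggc

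The retinal nuclei showed where the same genes were accessible. Unique fragments were counted over each gene and 2 kb on both sides (mm10), per 1000000 fragments of the cells counted, a level called CPM here. Barcodes that passed as cells numbered 1875 in the control (median 6225 fragments) and 690 in the Ikzf1/4 library (median 10902), and 3 barcodes were in both. With 1 library per group there is no test. Intervals are exact 95% Poisson or binomial intervals that cover counting error only. Cells were clustered without the members' windows, though windows of neighbouring genes can overlap them, and clusters were named from markers. The control held 634 Muller glia-like, 644 bipolar-like, 262 cone-like, 96 rod-like and 114 microglia-like cells, and 125 in clusters left unnamed. The control sample, labelled as Muller glia, was thus 33.8% Muller glia-like by these markers. Both Muller glia-like clusters also had vascular markers past 1.5-fold, 4 of 5 in cluster 1 and 3 of 5 in cluster 3.

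In the control, Smad6 and several ligand genes were more open in Muller glia-like cells than in the rest, and the ligand gene Tgfb1 and its receptor gene Tgfbr2 in microglia-like cells. At least 1.5-fold above all other cells were 8 of 46 members in Muller glia-like cells (9.51% of all genes), 9 of 46 in microglia-like (20.7%), 2 of 46 in bipolar-like (8.82%), 11 of 46 in cone-like (15.7%) and 12 of 43 in rod-like cells (22.5%). At least 1.5-fold below all other cells were 21 of 43 in rod-like (24.3% of all genes), 16 of 46 in microglia-like (21.6%), 11 of 46 in cone-like (16.5%), 9 of 46 in Muller glia-like (25.7%) and 9 of 46 in bipolar-like cells (11.6%). The median ratio of members in rod-like cells was 0.671, against 1.12 for all genes. These values for rod-like cells leave out Bmp3, Inhba and Inhbe, which had no fragment there in the control, and all other genes without one. In the Ikzf1/4 library, members at least 1.5-fold above all other cells were 5 of 44 in rod-like (17.6% of all genes) and 8 of 45 in cone-like cells (10.6%). They were 10 of 45 in Muller glia-like (11.8%) and 6 of 45 in bipolar-like cells (10.8%). Each of these sets of ratios describes 1 library and carries no test.

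In Muller glia-like cells the window of Smad6 (chromosome 9, 63953076 to 64022085) held 855 fragments at 213 CPM, against 48.5 CPM in all other cells, a ratio of 4.40 (3.92 to 4.94). Bmp3, an atypical BMP that can oppose other BMPs, was at 27.5 CPM against 6.49, a ratio of 4.23 (3.07 to 5.88). Inhba was at 46.7 CPM against 14.9, a ratio of 3.13 (2.50 to 3.93). The rest of the 8 were Gdf6 (2.56, 1.74 to 3.78), Gdf11 (2.39, 1.83 to 3.11), Bmpr1b (2.29, 2.03 to 2.57), Bmp5 (1.77, 1.40 to 2.23) and Tgfb2 (1.72, 1.52 to 1.95). In the Ikzf1/4 library the same class gave ratios of 4.62 (4.00 to 5.34) for Smad6, 7.58 (5.01 to 11.6) for Bmp3 and 3.66 (2.78 to 4.82) for Inhba. The openness of Smad6 lay at its start as well, where within 1 kb the ratio was 6.25 (4.94 to 7.96) in the control. The stretch before that start (GRCm38.p6, chr9:64022086-64022309, - strand), outside the annotated gene, is shown because it lies in the accessible window. It holds neither the Ikaros core nor GGCGCC.
Smad6: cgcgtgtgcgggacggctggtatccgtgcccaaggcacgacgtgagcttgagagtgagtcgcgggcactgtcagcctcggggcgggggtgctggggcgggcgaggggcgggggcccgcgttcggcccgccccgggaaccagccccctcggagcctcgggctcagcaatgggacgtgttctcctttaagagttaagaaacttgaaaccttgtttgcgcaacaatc

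In microglia-like cells of the control, Tgfb1 was at 155 CPM against 17.0 in all other cells, a ratio of 9.10 (7.41 to 11.2). Tgfbr2 was at 180 CPM against 32.4, a ratio of 5.56 (4.68 to 6.59), and the ratio was 22.1 (12.5 to 40.5) within 1 kb of its start. Of the Smads of this branch, Smad3 was at 327 CPM against 120.1, a ratio of 2.72 (2.43 to 3.05), while Smad2 was at 94.5 CPM against 100.6, a ratio of 0.939 whose interval included 1 (0.766 to 1.14). Tgfb1, Tgfbr2 and Smad3, but not Smad2, were thus more open in microglia-like cells than in the rest. Inhbc, of which 70 fragments were counted in the control, had a ratio of 5.14 (2.98 to 8.64). The windows of Tgfb1 and Smad3 each overlap that of 1 other protein-coding gene, and at their own starts the ratios were 9.91 (6.57 to 14.9) and 2.60 (2.00 to 3.36). The Ikzf1/4 library held 18 microglia-like cells, and its ratios for that class against other cells are not given. The bases before the starts of Tgfb1 (GRCm38.p6, chr7:25686752-25687001, + strand) and Tgfbr2 (chr9:116175364-116175613, - strand) are shown as the start regions with these high ratios. Neither holds the Ikaros core or GGCGCC, and that of Tgfbr2 holds the Smad box, which is not marked.
Tgfb1: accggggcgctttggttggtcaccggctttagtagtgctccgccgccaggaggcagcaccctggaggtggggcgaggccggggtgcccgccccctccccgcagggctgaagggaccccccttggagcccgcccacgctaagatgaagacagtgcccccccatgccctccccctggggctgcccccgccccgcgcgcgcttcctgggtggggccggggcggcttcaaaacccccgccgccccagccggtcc
Tgfbr2: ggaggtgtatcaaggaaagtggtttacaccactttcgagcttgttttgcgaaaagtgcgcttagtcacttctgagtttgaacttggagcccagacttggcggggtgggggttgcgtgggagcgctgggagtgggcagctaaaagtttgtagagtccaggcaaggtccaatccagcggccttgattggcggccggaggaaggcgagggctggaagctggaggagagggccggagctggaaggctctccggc

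The neurons differed among themselves. Bipolar-like cells had Smad9 at 32.2 CPM against 16.2 in all other control cells, a ratio of 1.99 (1.56 to 2.53), and 3.62 (2.34 to 5.69) within 1 kb of its start. In the Ikzf1/4 library that ratio was 1.79 (1.36 to 2.35). Tgfb2 was at 108 CPM against 64.6 in bipolar-like cells, a ratio of 1.67 (1.47 to 1.89), while cone-like cells had it at 15.8 CPM and rod-like at 14.8. The photoreceptor-like cells shared other members. Acvrl1, the receptor that fell in fibroblasts, was at 104 CPM in cone-like and 110 CPM in rod-like cells, ratios of 2.77 (2.35 to 3.26) and 2.41 (1.84 to 3.11), against 23.0 CPM in Muller glia-like cells. Gdf2, a ligand of that receptor, had ratios of 3.24 (2.29 to 4.55) in cone-like and 2.20 (1.17 to 3.82) in rod-like cells. Gdf10, which lies beside Gdf2 on chromosome 14, had a ratio of 2.63 (1.66 to 4.00) in rod-like cells.

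**Figure D4:**
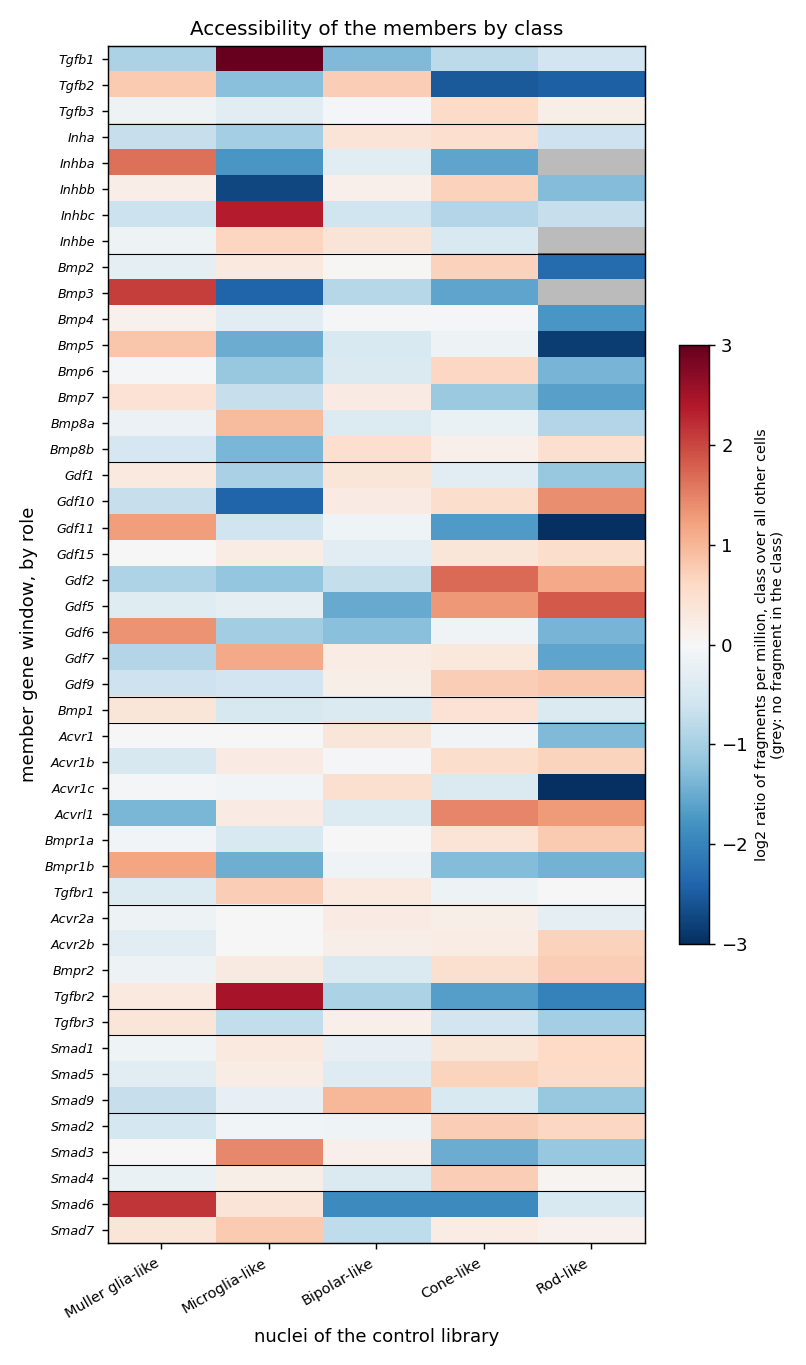
Log2 ratio of the CPM in each of 5 classes over all other cells of the control multiome library, for the 46 members with at least 50 fragments, ordered by role; red, more open, blue, less open, grey, no fragment in the class, colours end at 3 in each direction. Tgfb1, Tgfbr2 and Inhbc stand out in microglia-like cells, Smad6, Bmp3 and Inhba in Muller glia-like cells, and Acvrl1, Gdf2 and Gdf5 in photoreceptor-like cells.

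Between the libraries, over all cells, most members differed little. Of 48 members with at least 50 fragments, 6 lay past 1.5-fold, 2 higher and 4 lower in the Ikzf1/4 library, beside 7.86% of all genes. The median ratio was 1.10 for members and 1.06 for all genes. The makeup of the libraries differed as well, with Muller glia-like cells at 19.9% and microglia-like at 2.61% of the Ikzf1/4 cells, against 33.8% and 6.08% of the control, and rod-like cells at 20.1% against 5.12%. Tgfb1 and Tgfbr2, the members with the highest ratios of microglia-like to other cells in the control, were lower over all cells, at 0.717 (0.598 to 0.857) and 0.720 (0.624 to 0.830). Within microglia-like cells, of which the Ikzf1/4 library held 18, they were at 0.940 (0.641 to 1.35) and 1.5 (1.13 to 1.98). Within Muller glia-like cells they were at 0.966 (0.591 to 1.54) and 0.951 (0.721 to 1.24). The part of the makeup in the ratios over all cells was not tested.

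Gdf6 (chromosome 4, 9844372 to 9862345), a BMP-type ligand known for patterning the retina, had the highest ratio over all cells. It was at 8.43 CPM in the control and 15.9 CPM with Ikzf1/4, a ratio of 1.88 (1.46 to 2.43). It was not the highest in cells with at least 10000 fragments (1.63, below Inhbb at 2.03 and Gdf7 at 1.77) or over all barcodes (1.33, below Inhbe at 1.52). Within Muller glia-like cells it was at 14.7 and 46.8 CPM, a ratio of 3.18 (2.22 to 4.56). Most cells of that class were in cluster 1 in the control (379 of 634) and in cluster 3 in the Ikzf1/4 library (79 of 137), and the ratio was 3.54 (2.28 to 5.50) in the former and 2.93 (1.53 to 5.83) in the latter. Gdf6 was thus higher in both clusters beyond counting error. Within that class 4 of 37 members lay past 1.5-fold, beside 13.0% of all genes. The other higher ones were Tgfb2, from 110.4 to 220 CPM (1.99, 1.72 to 2.30), and Smad9, from 14.7 to 25.3 CPM (1.72, 1.12 to 2.62). For Smad9 the ratio was 1.85 (1.06 to 3.15) in cluster 1 and 1.64 (0.774 to 3.45) in cluster 3, where the interval included 1. Gdf10 was lower there at 0.554, with an interval that included 1 (0.249 to 1.11). Tgfb2 was higher in both clusters, by 1.63 (1.33 to 1.99) in cluster 1 and 2.45 (1.95 to 3.07) in cluster 3.

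In the neurons, 6 of 41 members lay past 1.5-fold within bipolar-like cells (3 higher and 3 lower; 7.58% of all genes), 7 of 35 within cone-like (5 higher and 2 lower; 7.52%) and 5 of 23 within rod-like cells (2 higher and 3 lower; 12.4%). Tgfb2, which was low in photoreceptor-like cells of the control, was higher there in the Ikzf1/4 library. It went from 15.8 to 28.6 CPM in cone-like cells (1.81, 1.18 to 2.82) and from 14.8 to 54.5 CPM in rod-like cells (3.68, 1.85 to 8.34, from 9 and 81 fragments). Gdf1, whose window overlaps those of 3 other protein-coding genes, was also higher within rod-like cells (2.046, 1.06 to 4.34), while Smad1 (0.647, 0.457 to 0.925), Gdf15 (0.614, 0.395 to 0.963) and Gdf10 (0.573, 0.333 to 0.999) were lower there. Within bipolar-like cells the interval of Tgfb2 included 1 (1.09, 0.941 to 1.25). Smad6 was higher within cone-like cells, from 29.9 to 56.8 CPM (1.90, 1.40 to 2.60), while within rod-like cells it was at 0.772 (0.529 to 1.14). In Muller glia-like cells of the control Smad6 was at 213 CPM and Tgfb2 at 110.4 CPM. Within bipolar-like cells the higher members were Gdf7 (2.23, 1.27 to 4.01), Bmp1 (1.67, 1.32 to 2.11) and Smad7 (1.55, 1.28 to 1.88). Bipolar-like cells lay mostly in cluster 0 in the control (526 of 644) and about evenly in clusters 0 and 4 in the Ikzf1/4 library (120 and 118). In cluster 0 and cluster 4 the ratios were 1.49 (1.10 to 2.00) and 1.94 (1.23 to 3.16) for Bmp1, and 1.45 (1.14 to 1.85) and 1.78 (1.22 to 2.67) for Smad7. For Gdf7 they were 2.13 (1.08 to 4.21) and, from 2 and 15 fragments, 4.22 (0.982 to 38.1).

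Gdf7, a ligand of the same group as Gdf6, was at 4.78 and 8.10 CPM over all cells, a ratio of 1.70 (1.19 to 2.42). Inhbb, at 15.9 and 23.4 CPM (1.47, 1.21 to 1.79), and Acvrl1, at 48.7 and 67.9 CPM (1.40, 1.25 to 1.56), were also higher beyond counting error. Within cone-like cells Inhbb was at 1.83 (1.29 to 2.63). Its intervals included 1 within Muller glia-like (0.855, 0.509 to 1.39), bipolar-like (1.16, 0.804 to 1.67) and rod-like cells (2.56, 0.883 to 10.1). The windows of Gdf7, Smad9, Bmp1, Bmpr1b and Inha each overlap that of 1 other protein-coding gene, whose fragments are counted too. For Acvrl1 the ratio was 1.13 (0.760 to 1.66) within Muller glia-like, 0.964 (0.796 to 1.17) within cone-like and 1.21 (0.912 to 1.62) within rod-like cells, so within these classes it was within counting error. Inhbe was at 1.47 with an interval that included 1 (0.986 to 2.20).

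Among the members lower in the Ikzf1/4 library, Bmpr1b, a BMP type I receptor, was at 85.1 CPM in the control and 60.6 CPM with Ikzf1/4, a ratio of 0.712 (0.641 to 0.789). It was lower within bipolar-like cells (0.636, 0.521 to 0.774) and cone-like cells (0.622, 0.429 to 0.893), and within Muller glia-like cells the interval included 1 (0.864, 0.728 to 1.02). By cluster, Bmpr1b was at 0.579 (0.440 to 0.752) and 0.751 (0.526 to 1.08) in the bipolar-like clusters 0 and 4. In the Muller glia-like clusters 1 and 3 it was at 0.781 (0.616 to 0.982) and 1.001 (0.770 to 1.30). Over all barcodes, most of which did not pass as cells, Bmpr1b was at 1.05, near the median of all genes there (1.06). Bmp5 was at 22.9 and 13.6 CPM (0.593, 0.475 to 0.735), lower within bipolar-like (0.551, 0.346 to 0.856) and cone-like cells (0.529, 0.307 to 0.887), and at 1.02 (0.729 to 1.42) within Muller glia-like cells. Of the bipolar-like clusters, Bmp5 was at 0.792 (0.435 to 1.38) in cluster 0 and 0.248 (0.110 to 0.522) in cluster 4. Over all barcodes Bmp5 was at 0.975 (0.905 to 1.05). Within 1 kb of its start 4 and 3 fragments gave 1.15 (0.168 to 6.78), too few to show a direction. Acvr1c was at 16.3 and 10.6 CPM, a ratio of 0.649 (0.504 to 0.831). Inhbc, at 5.22 and 2.85 CPM (0.546, 0.331 to 0.873), and Bmp10, at 2.98 and 1.71 CPM (0.573, 0.294 to 1.06), rest on 95 and 55 fragments in all, and neither was below 1 over all barcodes (1.09 and 1.17).

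**Figure D5:**
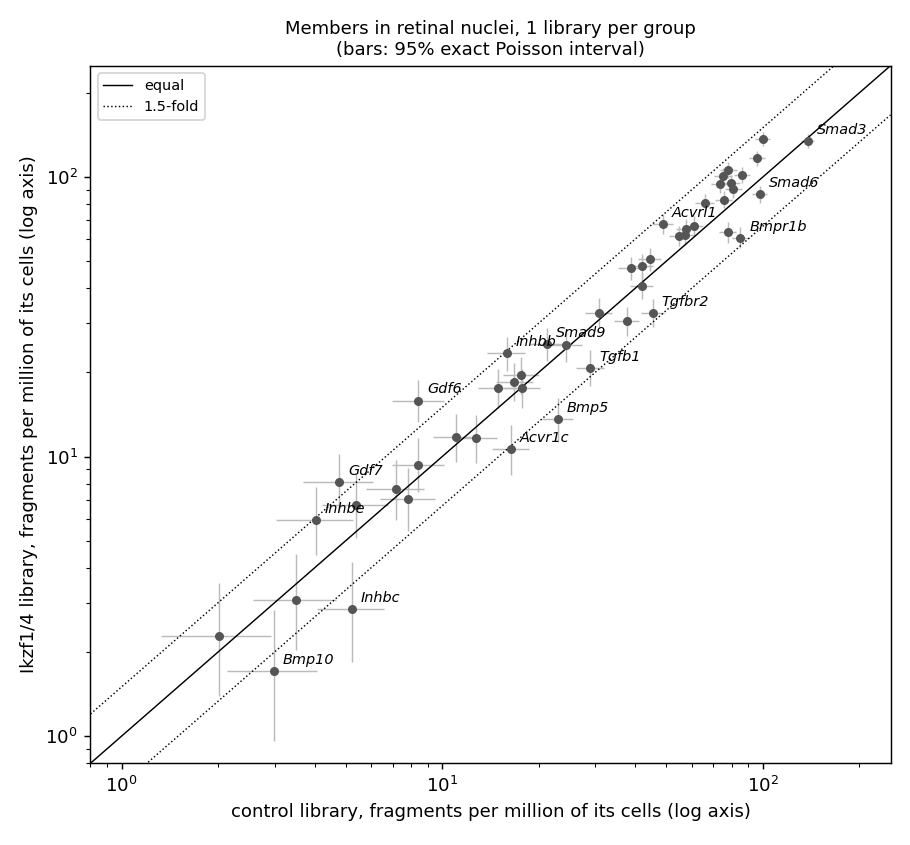
CPM in the control (x axis) and the Ikzf1/4 multiome library (y axis), both log axes, 1 point per member with exact 95% Poisson bars, 1 library per group; solid line, equal, dotted lines, 1.5-fold. Gdf6 (8.43 and 15.9) and Gdf7 lie above the upper dotted line, and Acvr1c, Bmp5, Inhbc and Bmp10 lie below the lower one.

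The members that moved most in fibroblast RNA can be set beside their accessibility in the retina, which is of other cells and another assay. Smad9 was at 21.2 and 25.2 CPM over all retinal cells, a ratio of 1.19 (0.993 to 1.42), with 1.72 within Muller glia-like and 1.61 (1.04 to 2.52) within cone-like cells. Within bipolar-like cells Smad9 was at 1.11 (0.850 to 1.45), within rod-like at 1.09 (0.406 to 3.40) and within microglia-like at 0.871 (0.217 to 2.58), intervals that all included 1. Acvrl1, which fell in fibroblasts, was at 1.40 over all retinal cells, but its intervals included 1 within every named class. It was at 1.04 (0.813 to 1.32) within bipolar-like and 1.13 (0.760 to 1.66) within Muller glia-like cells. Within cone-like cells it was at 0.964 (0.796 to 1.17), within rod-like at 1.21 (0.912 to 1.62) and within microglia-like at 1.11 (0.599 to 1.94). Inha was at 14.9 and 17.6 CPM, a ratio of 1.18 (0.948 to 1.46). Of its 200 and 154 fragments only 19 and 10 lay in the gene itself, where the ratio was 0.805 (0.334 to 1.82), so no direction was shown for the gene. Its window was at 0.434 (0.164 to 0.974, from 42 and 7 fragments) within Muller glia-like cells. Within bipolar-like cells the window was at 1.41 (1.002 to 1.97), the other way. Within cone-like (1.25, 0.822 to 1.91) and rod-like cells (1.23, 0.467 to 3.78) the intervals included 1. Gdf6 in turn had a mean normalised count of 37.8 in fibroblasts and a log2 fold change of 0.05 (SE 0.22, DESeq2 adjusted p 0.908) by the authors' deposited table.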

How the data were processed

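Per the submitters' processing notes, fibroblast RNA was quantified by the authors with salmon, and the deposited files hold estimated counts per Ensembl transcript, without a stated version. They further deposited a DESeq2 comparison with mean normalised signal, log2 fold change, Wald score and p-values raw and adjusted (p-value column). Transcripts are not paired with genes in the sources used here, so the planned edgeR test per gene was not run, the estimated counts gave library depth only, and gene calls are the deposited ones. Fold changes may be shrunk: the median standard error was 0.0494 at means under 2 and 0.172 between 100 and 200. The submitters' processing notes name mm9 and mm10 without saying for what. Fibroblast peak lists run past the end of chromosome 1 of mm10 and were not used.

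Per the file headers, multiome fragments came from cellranger-arc 2.0.1 with mm10, and the deposited files give counts of read pairs per fragment. The control listed 52119123 and the Ikzf1/4 library 29358834 fragments. Cells had at least 3000 fragments, an enrichment at RefSeq starts (within 500 bp, against 1500 to 2000 bp) of at least 4, and lay below the 99th percentile of fragments in each library; no doublet caller was run. Fragment midpoints were counted over genes with 2 kb flanks (RefSeq, GRCm38.p6). Clusters came from TF-IDF, 30 singular vectors without the first 1, 20 neighbours and Leiden at a resolution of 0.8 on 18269 windows, in Python 3.11.15 with scikit-learn 1.9.0 and leidenalg 0.10.2. A cluster was named where at least 3 markers exceeded 1.5-fold and their mean log2 ratio led the next class by 0.2, a rule set after values were seen. Interval coverage was tested only on simulated Poisson counts, which cannot speak to variation between libraries.

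The members and lists were chosen with earlier results of these data known. Some genes of the lists are not reported here and were left out of their counts and medians. Values were named for each member called, each not called in the top tertile by mean, the edges of the order by fold, the 2 largest rises and falls of each list, and the 10 largest retinal ratios with at least 50 fragments; others named were chosen after their values were seen.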

Additional observations from a re-analysis of the deposited data

How the results depend on the processing

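In fibroblast RNA, 16 members passed (10 higher, 6 lower). Requiring an absolute log2 fold change over 1 left 1 (1 higher, 0 lower). Benjamini-Yekutieli adjustment left 9 (5 higher, 4 lower), and an adjusted p under 0.01 left 11 (6 higher, 5 lower). Without the filter on low values, 14 calls held, and Acvr2b and Smad2 did not. In retinal nuclei, 6 of 48 members lay past 1.5-fold between libraries (2 higher, 4 lower; 7.86% of all genes). This became 2 of 25 within 1 kb of annotated starts (8.89% of genes), 11 of 46 in cells with at least 10000 fragments (6 higher, 5 lower; 9.29%) and 3 of 49 over all barcodes (4.42%). Over all barcodes, where the median of all genes was 1.06, Bmpr1b (ratio 1.05), Bmp10 (1.17) and Inhbc (1.09) were no longer below 1. At starts Bmp5 was at 1.15, from 4 and 3 fragments (interval 0.168 to 6.78), too few to show a direction. Within 1 kb of starts, an alternative added after seeing the data, the members at least 1.5-fold higher became 5 of 20 in rod-like cells (33.6% of genes at starts), from 12 of 43 (22.5% of genes). They became 7 of 25 in cone-like cells (21.0%), from 11 of 46 (15.7%), and 5 of 24 in microglia-like cells (18.3%), from 9 of 46 (20.7%). Fewer genes have a listed start, so the counts are of unlike sets of members. Causes of the differences were not tested.

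Fits on gene counts (other count tests, no filter on counts, leaving out each library) were not run, because transcripts are not paired with genes in the sources used here. No paired analysis was possible because the deposited gene comparison carries no values per library. Depth limits the retinal ratios, in particular in the 18 microglia-like Ikzf1/4 cells and the 96 rod-like control cells, and for members with few fragments.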
